A study of Homo sapiens with 4 samples.

Results

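The genes described here lie next to each other on the long arm of chromosome 3, in bands 3q25 to 3q26, from EIF2A to MFN1, with MECOM in the distal part. The list holds 50 genes, and 49 of them were found on the array through the platform's gene names (PIK3CA was not analysed here), out of 18418 genes represented in the series. They were chosen by measured values: the region stood out because runs of neighbouring genes differed between the 2 groups of arrays. The differences between those groups are therefore a description of the genes. Calls of the fit over all clusters are counted for them, also under other settings, and nothing is read from those counts.

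The tested cells were OVCAR-3, an established human ovarian carcinoma line, made to overexpress the linker histone H1.3 (titled H1.3(H), 2 arrays), and the comparison cells were OVCAR-3 transfected with a vector lacking H1.3 (titled VO, 2 arrays). All were grown in the same medium with serum. The titles call the replicates biological; whether each is its own transfection, pool or clone is unstated, and p-values measure only the spread between these arrays, which may be technical. Values are log2 levels from RMA, and a difference of 1 on that scale is a doubling; differences below are always H1.3 minus VO, with the standard error of the fit (SE, n = 2 each).

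Linker histones bind the DNA that enters and leaves the nucleosome and help to compact chromatin, and H1.3 is a member of that family found in many somatic cells. The 3q26 region is a frequent site of copy gain in serous ovarian carcinoma and holds several genes studied as drivers, among them MECOM, a zinc-finger transcription factor also known as EVI1, PRKCI, an atypical protein kinase C, SKIL, a repressor of SMAD signalling, and ECT2, a gene needed for cytokinesis. The neighbouring 3q25 bands hold IL12A, the p35 subunit that joins with a second chain to form interleukin 12 or interleukin 35, and SMC4, a core subunit of condensin.

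The gene for H1.3 itself, H1-3, measured 7.47 and 7.69 on the arrays labelled H1.3, against 8.65 and 7.88 on the VO arrays. The difference of -0.685 ± 0.24 (SE, not called by limma) runs against the label, and it was -0.30 without VO replicate 1; these are therefore called the arrays labelled H1.3 throughout. No source used here tells whether the probes for H1-3 detect the transfected sequence. Array medians over all transcript clusters lay between 6.21 and 6.27. Of 14 ovarian carcinoma markers, 13 lay at or above the median level of the named clusters (6.84), with PAX8 averaging 11.16 on the arrays labelled H1.3 and 11.03 on the VO arrays. The largest difference among these 14 was that of EPCAM, at -0.565, with 2 markers lower and 0 higher at an unadjusted p under 0.05 in limma and 0 called. Over all 21214 named clusters those shares were 6.34% lower and 5.21% higher, with 0.264% called lower and 0.24% called higher. Of 9 leukocyte, 8 fibroblast and 6 endothelial markers, 1 (NCAM1), 1 (COL1A1) and 0 reached that level. The leukocyte marker PTPRC averaged 3.39 on the arrays labelled H1.3 and 3.16 on the VO arrays. The largest difference was -0.855 for NCAM1 among the leukocyte markers, -0.425 for FAP among the fibroblast markers and -0.375 for KDR among the endothelial markers, none called. The part of these markers in the differences below was not tested. In RNA from bulk cells, fewer cells of a type and less RNA per cell cannot be told apart.

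The differences did not spread evenly over the region. From EIF2A to SHOX2 the 11 members had a median difference of -0.005, from RSRC1 to NMD3 the 16 members had a median difference of -0.69, and from BCHE to MFN1 the 22 members had a median difference of 0.01. These 3 segments were drawn after the values were seen and carry no test. The median over all 18418 genes was 0.015, and that over the 910 genes measured elsewhere on chromosome 3 was 0.025.

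**Figure D1:**
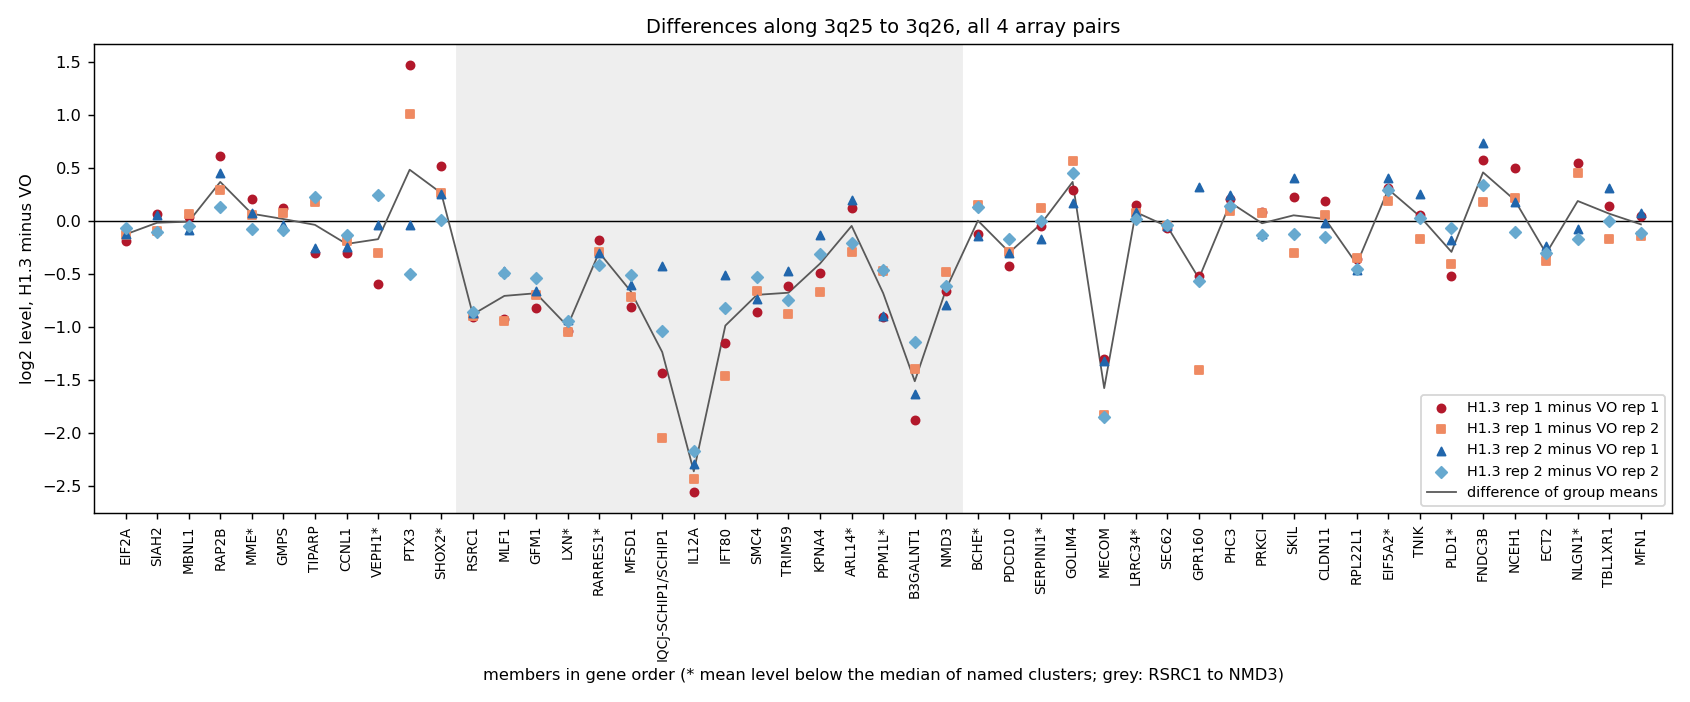
Difference in log2 level (vertical axis) for the 49 members in gene order (horizontal axis), with 1 point for each of the 4 pairs of an H1.3 array and a VO array and a line through the difference of the group means. The line lies below 0 at every member from RSRC1 to NMD3 (grey), while ARL14 has points on both sides of 0. MECOM lies at -1.575 between GOLIM4 at 0.37 and LRRC34 at 0.085, and an asterisk marks a mean level below 6.84.

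Every member between RSRC1 and NMD3 had a negative difference. The ends of this segment were placed from these values, so neither the shared sign nor the next count supports anything. In 15 of the 16 the arrays of the groups did not overlap, where 19.4% of the 21214 named clusters were lower without overlap, and the exception was ARL14, a small GTPase gene measured at only 3.96 and 4.04 on the arrays labelled H1.3 and 3.84 and 4.25 on the VO arrays. Among the 12 members of this segment at or above the median level, differences ran from -2.36 to -0.40 with a median of -0.70, a 1.62-fold lower level. IL12A reached that level through the VO arrays alone, and without it the other 11 ran from -1.51 to -0.40 with a median of -0.695. The other 4 members, dimmer than that, were LXN at -0.99, PPM1L at -0.68, RARRES1 at -0.295 and ARL14 at -0.045.

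The edge on the proximal side was drawn between a pair of neighbours that point away from each other. SHOX2, a homeobox transcription factor gene, measured 6.94 and 6.68 on the arrays labelled H1.3, against 6.42 and 6.67 on the VO arrays. RSRC1, an SR-related protein that takes part in splicing, measured 8.82 and 8.85 on the arrays labelled H1.3, against 9.72 and 9.71 on the VO arrays. The level of RSRC1 was lower on both arrays labelled H1.3 by more than the spread of either group, a difference of -0.88 ± 0.11 (SE), while that of SHOX2 was 0.265 ± 0.15 (SE), with its groups almost touching. The starts of SHOX2 and RSRC1 lie 3926 bases apart on opposite strands. SHOX2 lay below the median level, at a mean of 6.678 over the arrays. Of the members just before it, VEPH1 was dim at 4.44, and PTX3 varied widely on the arrays labelled H1.3 (SD 1.07, n = 2). CCNL1, the nearest member before these, was lower without overlap at -0.215, as were 19.4% of all named clusters at any size of difference. The values thus do not fix the edge to the stretch between SHOX2 and RSRC1.

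At the distal edge, NMD3, an adaptor for the nuclear export of the large ribosomal subunit, measured 10.45 and 10.32 on the arrays labelled H1.3, against 11.11 and 10.93 on the VO arrays, a difference of -0.635 ± 0.13 (SE). The next measured gene, SPTSSB, a small subunit of serine palmitoyltransferase, overlapped between groups with a difference of 0.05. SPTSSB lay below the median level, at a mean of 6.365 over the arrays, and its pair differences ran from -0.74 to 0.84. The next members were BCHE, the butyrylcholinesterase gene, at 0.005 with a level of at most 3.01 on all arrays, and PDCD10, a gene of vascular integrity, at -0.295 ± 0.12 (SE). PDCD10, the first gene beyond NMD3 at or above the median level, was lower without overlap, as were 19.4% of all named clusters. GOLIM4, the next member of that level, was higher without overlap at 0.37. The dim genes between NMD3 and PDCD10 cannot show where the lower levels end.

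To show the sequence on both sides of the proximal edge and at the strongest member, the 250 bases before the start of SHOX2, RSRC1 and IL12A are printed from the RefSeq promoter table (GRCh38.p14), 5′ to 3′ on the gene's own strand. Capitals mark the GC box, searched as GGGCGG or CCGCCC on both strands; hits may overlap.
SHOX2, chr3:158106164-158106413, - strand: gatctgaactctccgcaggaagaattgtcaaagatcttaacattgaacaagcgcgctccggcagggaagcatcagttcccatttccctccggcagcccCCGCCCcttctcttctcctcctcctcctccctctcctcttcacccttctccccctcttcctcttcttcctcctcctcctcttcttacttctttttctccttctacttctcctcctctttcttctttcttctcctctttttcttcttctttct
RSRC1, chr3:158109839-158110088, + strand: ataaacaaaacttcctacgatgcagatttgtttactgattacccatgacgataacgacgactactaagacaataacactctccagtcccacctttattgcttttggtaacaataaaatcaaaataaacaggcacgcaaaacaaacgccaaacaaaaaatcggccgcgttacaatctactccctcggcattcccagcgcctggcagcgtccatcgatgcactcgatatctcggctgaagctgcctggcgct
IL12A, chr3:159988585-159988834, + strand: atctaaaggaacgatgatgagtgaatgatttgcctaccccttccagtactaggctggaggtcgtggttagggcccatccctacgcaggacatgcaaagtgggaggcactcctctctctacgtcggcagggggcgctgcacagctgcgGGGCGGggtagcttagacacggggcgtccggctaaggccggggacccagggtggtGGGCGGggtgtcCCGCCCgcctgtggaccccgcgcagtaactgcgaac

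The SHOX2 and RSRC1 windows overlap no other RefSeq gene, and that of IL12A lies within the span of the antisense gene IL12A-AS1. IL12A held 3 GC boxes, SHOX2 1 and RSRC1 0, while GC content was 64.0% for IL12A, 50.4% for SHOX2 and 45.2% for RSRC1. Of the 47 members with a window in the table, 31 (66.0%) held a GC box, as did 7 of 14 in the segment from RSRC1 to NMD3 and 41.6% of the 27305 promoters of the table (the first start of each gene). A GC box was in 8 of 11 windows from EIF2A to SHOX2 and in 16 of 22 from BCHE to MFN1, each 72.7%. The median ratio of observed to expected CpG was 0.79 over the members and 0.54 over all promoters. By segment it was 0.84 from EIF2A to SHOX2, 0.88 from RSRC1 to NMD3 and 0.73 from BCHE to MFN1. A TATA box, searched as TATAAA or TTTATA, was in 7 member windows (14.9%), against 11.3% of all promoters.

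IL12A had the largest difference of the region. It measured 5.64 and 5.90 on the arrays labelled H1.3, against 8.19 and 8.07 on the VO arrays. The groups were far apart, with a difference of -2.36 ± 0.14 (SE), a 5.13-fold lower level, and both arrays labelled H1.3 lay below the median level of the named clusters. Set against the median of the 12 brighter members of its own segment, IL12A differed by a further -1.66, and by -1.67 to -1.495 in the 4 array pairs. The same excess was -0.81 for B3GALNT1.

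B3GALNT1, the glycosyltransferase that makes globoside, measured 7.40 and 7.65 on the arrays labelled H1.3, against 9.28 and 8.79 on the VO arrays, a difference of -1.51 ± 0.18 (SE). A cluster annotated to both SCHIP1, a binding partner of the NF2 product, and the read-through gene IQCJ-SCHIP1 measured 6.61 and 7.62 on the arrays labelled H1.3, against 8.04 and 8.66 on the VO arrays. Its difference was -1.235 ± 0.33 (SE), with the widest spread of the segment on the arrays labelled H1.3 (SD 0.71, n = 2), and it was -0.73 without H1.3 replicate 1. LXN, latexin, an inhibitor of carboxypeptidases, measured 6.06 and 6.17 on the arrays labelled H1.3, against 7.10 and 7.11 on the VO arrays, a 1.99-fold lower level with replicates close together.

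Several members of the segment differed by about as much as its median. MLF1, a gene known from myeloid leukaemia, measured 8.72 and 9.17 on the arrays labelled H1.3, against 9.64 and 9.66 on the VO arrays. GFM1, a mitochondrial translation elongation factor, measured 8.97 and 9.13 on the arrays labelled H1.3, against 9.79 and 9.67 on the VO arrays. These came to -0.705 and -0.68. MFSD1, a lysosomal membrane transporter, measured 9.58 and 9.79 on the arrays labelled H1.3, against 10.39 and 10.30 on the VO arrays. PPM1L, a protein phosphatase, measured 5.84 and 5.85 on the arrays labelled H1.3, against 6.74 and 6.31 on the VO arrays. Differences were -0.66 and -0.68, and PPM1L is dim. The gene spans of GFM1 and LXN overlap in RefSeq. RARRES1, a retinoid-induced gene related to latexin, was dim in both groups.

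**Figure D2:**
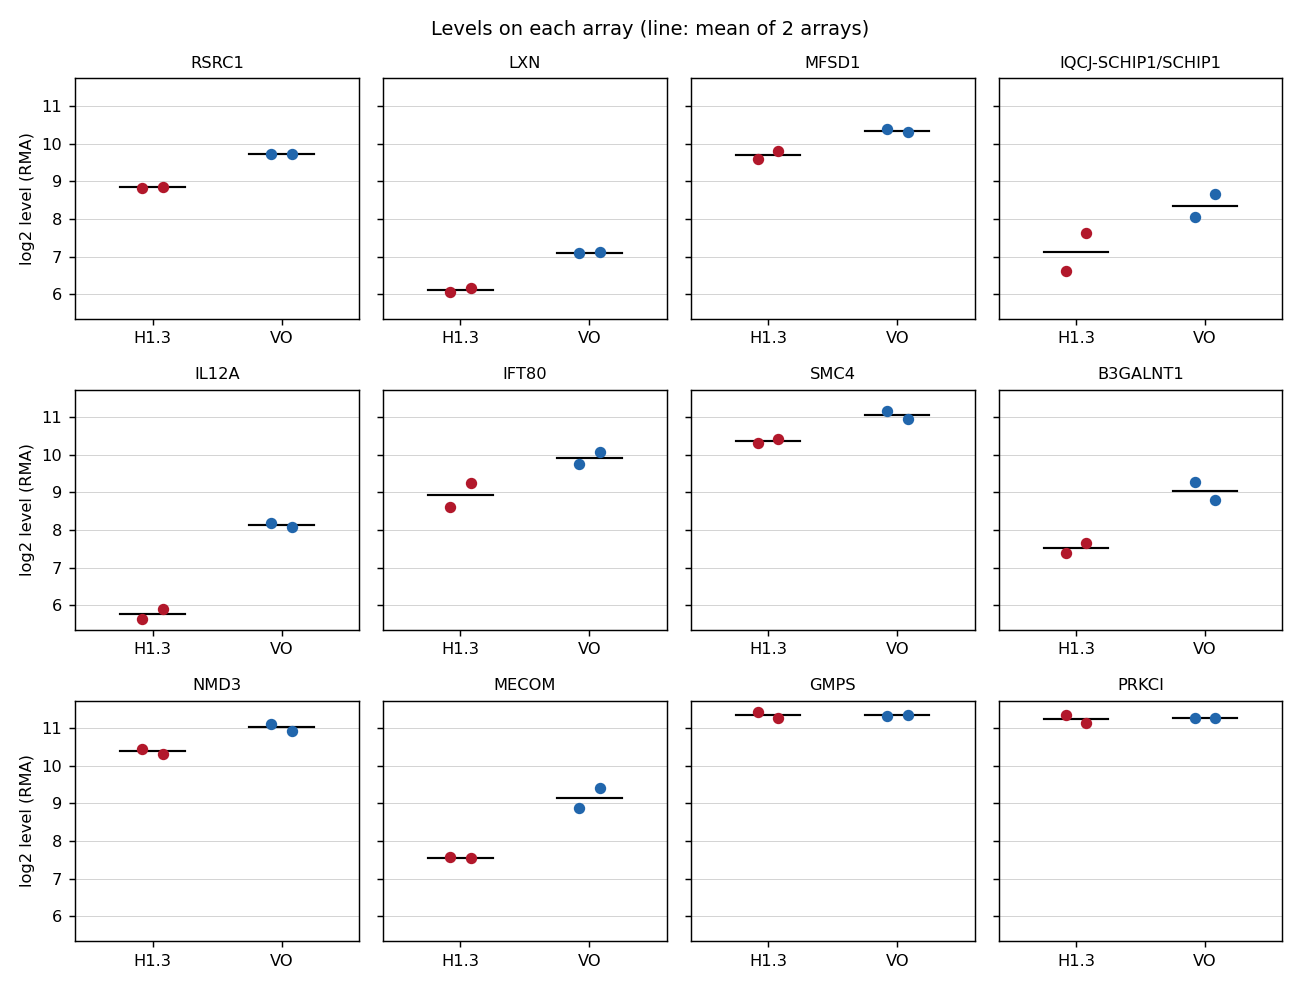
Log2 level (vertical axis) on each array for 12 members, with the arrays labelled H1.3 in red on the left, the VO arrays in blue on the right and a line at the mean of 2 arrays. The groups are apart for the members from RSRC1 to NMD3 and for MECOM, and they overlap for GMPS and PRKCI.

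Midway along this segment lies a group of genes with roles in cell division, cilia and nuclear import. SMC4 measured 10.30 and 10.43 on the arrays labelled H1.3, against 11.16 and 10.96 on the VO arrays, a difference of -0.695 ± 0.13 (SE). IFT80, an intraflagellar transport protein of the cilium, measured 8.61 and 9.25 on the arrays labelled H1.3, against 9.76 and 10.07 on the VO arrays. The difference of -0.985 ± 0.22 (SE) for IFT80 was the less even, with an SD of 0.45 on the arrays labelled H1.3 (n = 2). TRIM59, a tripartite motif ubiquitin ligase, measured 8.0 and 8.14 on the arrays labelled H1.3, against 8.61 and 8.88 on the VO arrays. KPNA4, importin alpha 3, measured 9.60 and 9.96 on the arrays labelled H1.3, against 10.09 and 10.27 on the VO arrays. The differences of -0.675 for TRIM59 and -0.40 for KPNA4 were without overlap.

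IFT80 and SMC4 start 425 bases apart on opposite strands, so their upstream windows overlap; both are printed in the same form as above because the pair differed in the same direction. The read-through gene TRIM59-IFT80 spans both windows. The table gives a further start for SMC4, and the first is shown.
IFT80, chr3:160399226-160399475, - strand: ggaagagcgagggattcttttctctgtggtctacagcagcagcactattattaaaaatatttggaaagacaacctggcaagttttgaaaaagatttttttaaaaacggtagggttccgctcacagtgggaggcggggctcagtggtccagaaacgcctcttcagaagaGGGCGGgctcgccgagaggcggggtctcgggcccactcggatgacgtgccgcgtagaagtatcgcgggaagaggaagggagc
SMC4, chr3:160399400-160399649, + strand: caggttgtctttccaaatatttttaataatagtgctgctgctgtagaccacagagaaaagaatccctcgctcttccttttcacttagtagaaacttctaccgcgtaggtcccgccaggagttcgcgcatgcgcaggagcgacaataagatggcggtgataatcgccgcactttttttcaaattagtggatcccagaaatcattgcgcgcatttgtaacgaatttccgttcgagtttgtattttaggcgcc

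IFT80 held 1 GC box and SMC4 0 in these windows, and the ratio of observed to expected CpG was 0.96 and 1.33. Within the span of SMC4 lie a pair of microRNA genes, MIR15B and MIR16-2, whose products belong to the miR-15/16 family known to target cell cycle genes. Their mature 5p strands from RefSeq (GRCh38.p14) are shown with the seed, bases 2 to 8, in capitals.
hsa-miR-15b-5p, chr3:160404607-160404628, + strand: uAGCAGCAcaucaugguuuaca
hsa-miR-16-5p, chr3:160404754-160404775, + strand: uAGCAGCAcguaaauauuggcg

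Both share the seed AGCAGCA. The cluster for MIR15B measured 5.04 and 4.32 on the arrays labelled H1.3, against 5.80 and 5.53 on the VO arrays, a difference of -0.985 ± 0.23 (SE). That for MIR16-2, picked out after its values were seen, measured 3.67 and 3.66 on the arrays labelled H1.3, against 4.15 and 4.07 on the VO arrays. Both were lower without overlap on the arrays labelled H1.3, in the direction of SMC4, at levels below the median; the mature microRNAs were not measured here.

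The other genes measured in the segment that are no members were also lower without overlap, as were 19.4% of the 21214 named clusters. SCARNA7, a small Cajal body RNA within KPNA4, measured 10.40 and 10.41 on the arrays labelled H1.3, against 10.97 and 10.89 on the VO arrays, a difference of -0.525 ± 0.11 (SE). LOC100287290 differed by -0.71 ± 0.13 (SE), and C3orf80, at a level under 4, by -0.045. With MIR15B and MIR16-2 these 5 genes had a median difference of -0.525, and only SCARNA7 lay at or above the median level.

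Beyond NMD3 the members lost the common direction. Of the 22 members from BCHE to MFN1, 10 had a negative and 12 a positive difference. MECOM stood apart from them. The cluster of its highest mean measured 7.57 and 7.55 on the arrays labelled H1.3, against 8.87 and 9.40 on the VO arrays, a difference of -1.575 ± 0.18 (SE) and a 2.98-fold lower level. Its nearest members on either side were GOLIM4, a Golgi membrane protein, at 0.37 and LRRC34, a leucine-rich repeat gene between 2.97 and 3.12 on all arrays, at 0.085.

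A second cluster is annotated to MECOM, and it did not share the difference. It measured 6.56 and 6.39 on the arrays labelled H1.3, against 6.24 and 6.75 on the VO arrays, a difference of -0.02 ± 0.18 (SE) with overlap. The annotation gives 13 transcript accessions for the first and 7 for the second, 2 of them shared. MECOM is known to give rise to a short form, EVI1, and a longer form that begins at the distant MDS1 exons; no source used here tells which exons each cluster covers. PHC3, a Polycomb group protein, also had a second cluster, at -0.41 with a level near 5, whereas its main cluster was at 0.175, higher without overlap; they share 0 accessions.

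Among further signalling and growth genes of 3q26, some overlapped between groups and others did not. PRKCI measured 11.36 and 11.15 on the arrays labelled H1.3, against 11.27 and 11.28 on the VO arrays, a difference of -0.02 ± 0.13 (SE). SKIL was at 0.055, TNIK, a kinase of the Wnt pathway, at 0.045, TBL1XR1, a subunit of the NCoR corepressor complex, at 0.07, and all 3 overlapped between groups. ECT2 measured 9.93 and 10.01 on the arrays labelled H1.3, against 10.24 and 10.31 on the VO arrays, a difference of -0.305 ± 0.12 (SE). RPL22L1, a ribosomal protein paralogue, was at -0.405, and PLD1, a phospholipase D, at -0.29; like ECT2 they were lower without overlap. In the other direction, FNDC3B, a membrane protein studied as an oncogene, was at 0.46, EIF5A2, a translation factor, at 0.30, and GOLIM4 at 0.37, each higher without overlap.

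GPR160, an orphan receptor gene, was at -0.54 ± 0.34 (SE) with overlap, since both groups held a low and a high array (6.80 and 7.64 on the arrays labelled H1.3, against 7.32 and 8.20 on the VO arrays). SEC62, a part of the protein translocation machinery, was at -0.05, MFN1, a mitochondrial fusion GTPase, at -0.03, CLDN11, a tight junction protein, at 0.02, and NCEH1, a cholesteryl ester hydrolase, at 0.20. SERPINI1 (neuroserpin) and NLGN1 (a synaptic adhesion protein) stayed under 5 on all arrays, at -0.025 and 0.19.

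Proximal to RSRC1, members lay on both sides of a median near 0. GMPS, the enzyme that makes GMP, measured 11.44 and 11.28 on the arrays labelled H1.3, against 11.32 and 11.36 on the VO arrays. MBNL1, a splicing regulator, measured 9.90 and 9.78 on the arrays labelled H1.3, against 9.86 and 9.83 on the VO arrays. SIAH2, a ubiquitin ligase, measured 8.90 and 8.89 on the arrays labelled H1.3, against 8.83 and 8.99 on the VO arrays. In these 3 genes the groups overlapped, with differences of 0.02, -0.005 and -0.015. EIF2A, a translation initiation factor, was at -0.125 and CCNL1, cyclin L1, at -0.215, both lower without overlap, while RAP2B, a Ras-related GTPase, was at 0.37 and higher. TIPARP, an ADP-ribosyltransferase induced by the aryl hydrocarbon receptor, was at -0.035. MME, the peptidase neprilysin, and VEPH1 were dim, at 0.07 and -0.17. PTX3, the long pentraxin of innate immunity, measured 7.92 and 6.41 on the arrays labelled H1.3, against 6.45 and 6.91 on the VO arrays, so that its difference of 0.485 ± 0.43 (SE) rests on H1.3 replicate 1.

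Counted over the whole region, 23 of the 49 members were lower and 7 higher without overlap between the groups. Over all 21214 named clusters these shares were 19.4% lower and 21.2% higher. A difference of at least 0.5 without overlap was found in 14 members on the lower side, against 2.8% of all clusters, and in 0 on the higher side, against 1.99%. In limma over all clusters, 5 members were called lower at an adjusted p under 0.05 (RSRC1, LXN, IL12A, B3GALNT1 and MECOM), against 0.264% of clusters, and 0 higher, against 0.24%. At an unadjusted p under 0.05 in limma, 19 members were lower, against 6.34% of clusters, and 4 higher, against 5.21%. Since the genes were picked for this contrast, nothing is read from these counts. With any 1 of the 4 arrays left out, IL12A lay between -2.49 and -2.23, MECOM between -1.84 and -1.31 and B3GALNT1 between -1.755 and -1.265. LXN lay between -1.045 and -0.935 and RSRC1 between -0.895 and -0.865. The signs of these 5 could not change, because their groups did not overlap.

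The differences were also taken for each pair of arrays. For the 12 members from RSRC1 to NMD3 at or above the median level, the median was -0.88 and -0.885 for H1.3 replicate 1 against VO replicates 1 and 2, and -0.63 and -0.675 for H1.3 replicate 2. All 12 were below 0 in each of the 4 pairs, which only restates that their groups did not overlap. Without IL12A the pair medians of the other 11 lay between -0.88 and -0.60. The shift was thus larger in H1.3 replicate 1: the median of replicate 2 minus replicate 1 within the arrays labelled H1.3 was 0.23, and 11 of the 12 were higher in replicate 2, against 56.9% of the 9308 genes of that level. Within the VO arrays the corresponding median was -0.05. Over the 16 members of that level from BCHE to MFN1 the pair medians lay on both sides of 0, from -0.155 to 0.125, as did those from EIF2A to SHOX2, from -0.07 to 0.075.

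**Figure D3:**
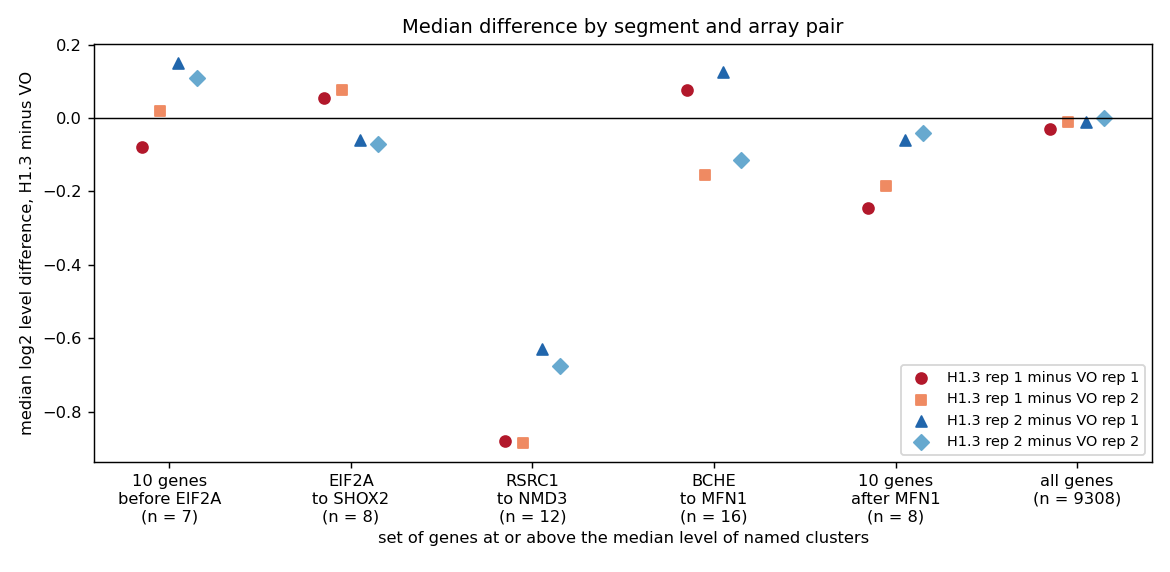
Median log2 difference (vertical axis) for genes at or above the median level in 6 sets along and beyond the region, with 1 point for each of the 4 array pairs. RSRC1 to NMD3 lies between -0.885 and -0.63 in all pairs, and the other 5 sets lie between -0.245 and 0.15.

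A split of the members in gene order between ARL14 and PPM1L gave a blunter picture. The 24 members from EIF2A to ARL14 had a median of -0.255 and the 25 from PPM1L to MFN1 a median of -0.02, and the segment from RSRC1 to NMD3 crosses that split. In sliding windows of 7 members, the median was lowest, at -0.985, in the windows centred on MFSD1 and SCHIP1. The region's outer limits were not marked by a step. TSC22D2, LOC646903 and SERP1, just before EIF2A, were at 0.225, 0.05 and -0.03, and GNB4, ACTL6A and MRPL47, just after MFN1, were at 0.24, -0.23 and -0.09. The 10 genes on each side had medians of 0.02 before and -0.13 after.

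In all, 53 genes that are no members were measured between EIF2A and MFN1, with a median difference of 0.03, and most were dim: 10 lay at or above the median level. Outside the lower segment, IGSF10, an immunoglobulin superfamily gene, measured 5.98 and 6.27 on the arrays labelled H1.3, against 5.24 and 5.45 on the VO arrays, a difference of 0.78 ± 0.15 (SE). TERC, the RNA template of telomerase, which lies on the distal side of MECOM, measured 8.10 and 7.88 on the arrays labelled H1.3, against 7.40 and 7.53 on the VO arrays. TERC was thus higher without overlap by 0.525 ± 0.13 (SE), opposite in sign to MECOM.

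Paralogues of the members were measured outside the region, KPNA1 among them elsewhere on chromosome 3. Of 31 such paralogues measured, 0 were called in limma in either direction (1 lower and 3 higher at an unadjusted p under 0.05), and their median difference was 0.01. Over all named clusters 0.264% were called lower and 0.24% higher, so 0 calls among 31 genes says little. At an unadjusted p under 0.05 in limma the shares were 6.34% lower and 5.21% higher. For 4 members from RSRC1 to NMD3 with a paralogue at or above the median level, the members had a median of -0.70 and their 5 paralogues a median of 0.07. B3GALNT2 was at 0.195 beside B3GALNT1 at -1.51, MLF2 at 0.06 beside MLF1 at -0.705, KPNA3 at 0.335 and KPNA1 at 0.07 beside KPNA4 at -0.40, and SMC2 at -0.195 beside SMC4 at -0.695. The paralogue with the largest difference was CCNL2, at -0.61 beside CCNL1 at -0.215. These are descriptions of a few genes, with no test of the difference. The segment from RSRC1 to NMD3 was drawn after its lower values were seen, so a gap to genes at other loci follows from that choice.

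**Figure D4:**
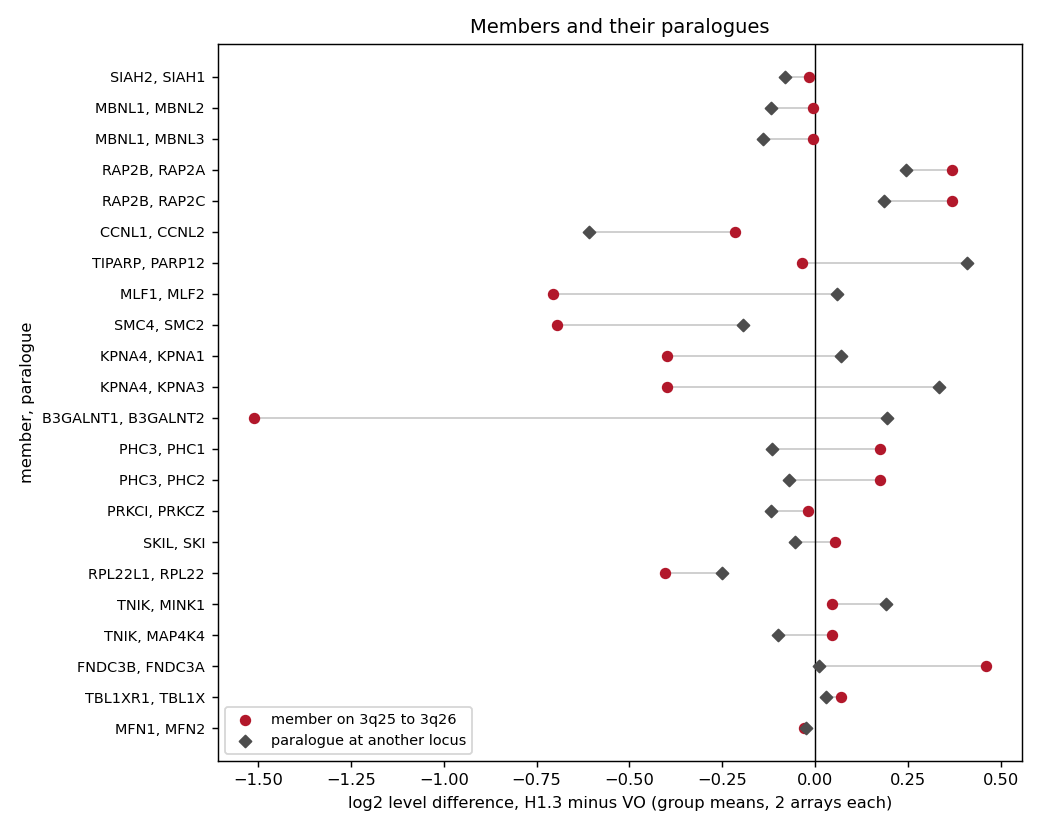
Log2 difference (horizontal axis) of 17 members (red circles) and 22 paralogues at other loci (grey diamonds), for the pairs with both genes at or above the median level, in gene order from top to bottom. In the 5 pairs from MLF1 to B3GALNT1 the member lies at -0.40 or below and the paralogue between -0.195 and 0.335.

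Partners in the complexes and pathways of the members were near the median of all genes too. Over the 10 lists of partners and paralogues, 87 genes were measured, 0 were called in limma (4 lower and 5 higher at an unadjusted p under 0.05) and the median was 0.065. With 0.264% of all named clusters called lower and 0.24% higher, 0 calls among 87 genes says little either. The shares at an unadjusted p under 0.05 in limma were 6.34% lower and 5.21% higher. Of 12 other IL-12 family subunits, receptors and signalling genes, 11 lay above 0, around a median of 0.07. Of all 18418 genes 9800 lay above 0, and only 2 of the 12 were at or above the median level. IL6ST, the shared receptor chain gp130, was at 0.69 ± 0.12 (SE), uncalled. For condensin, the 7 other subunits had a median of 0.00, with NCAPD3 at -0.56. Partners of SKIL in SMAD signalling had a median of 0.145 over 9 genes, with the receptor TGFBR2 at -0.705, and class I PI3K genes had a median of 0.11 over 7 genes, with PIK3R3 at 0.20. The median was -0.035 over 9 genes of the polarity complex of PRKCI (PARD6A at 0.265), 0.005 over 7 Polycomb partners of PHC3 (PCGF6 at -0.475), and -0.11 over 3 NCoR partners of TBL1XR1 (HDAC3 at -0.155). It was 0.105 over 5 cytokinesis partners of ECT2 (PLK1 at 0.165) and 0.10 over 6 relatives and partners of MECOM (GATA2 at 0.315). Single arrays weighed heavily on several of these genes. Without H1.3 replicate 1, PCGF6 was at -0.22, PARD6A at 0.025 and GATA2 at 0.07. Without VO replicate 1, PLK1 was at 0.015, and without VO replicate 2, TGFBR2 was at -0.335 and PIK3R3 at -0.085.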

How the data were processed

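Total RNA of OVCAR-3 cells was hybridised to 4 arrays, 2 per group. The table the authors deposited holds log2 values of 33297 transcript clusters on each array; RMA and Affymetrix Expression Console are named, without versions, in the submitters' processing notes. RMA corrects background, equalises array distributions and summarises probes, so single probes could not be examined, and the number of arrays limits the precision. No source used here gives the array's genome build or probe positions.

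Names came from the platform annotation, updated by gene ID to RefSeq (GRCh38.p14), which also gave the gene order. Of 21214 named clusters, 19460 have 1 symbol and 1754 several; a gene is represented by its single-symbol cluster of highest mean, and SCHIP1 by the cluster it shares. H1.3 was compared with VO in limma 3.58.1 (R 4.3.3; lmFit, eBayes, no covariate, Benjamini-Hochberg over all 21214 clusters, threshold 0.05), with 2 residual and 5.16 prior degrees of freedom and a median SE of 0.13. Genes named with values on each array are IL12A, MECOM, members called, members without overlap and a difference of at least 0.5, and the 4 members at or above the median level with the smallest differences; other genes named are H1-3, the 3 genes beyond each end, neighbours without overlap and a difference of at least 0.5, and the largest difference of each list. SPTSSB, MIR16-2, C3orf80, the marker examples, the paralogues named beside a member and members outside the rule were chosen after their values were seen. Members, lists and rules were chosen with earlier results of these data known. Alternatives changed scaling, filter, clusters tested, moderation, the replicate block and the arrays used. Figures were drawn with matplotlib 3.10.9.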

Additional observations from a re-analysis of the deposited data

How the results depend on the processing

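With 2 arrays per group and no probe signals, background and dim clusters cannot be examined further. The 5 members called lower became 4 with arrays at one median, 3 when clusters below the median level were left out, 1 with all transcript clusters, 9 under a robust trend and 0 to 0 on leave-one-out. Over all clusters, 51 higher and 56 lower became 19 and 31 with arrays at one median, 1 and 3 with all transcript clusters, 29 and 38 on second quantile normalization, 107 and 138 under a robust trend, 6 and 19 when clusters below the median level were left out, and 0 to 0 on leave-one-out (1292 to 2367 at an unadjusted p under 0.05 in limma). Leaving out an array leaves 1 array in its group, which is assumed to vary like the other group. More clusters tested or fewer arrays belong to these settings by construction; the cause of the other shifts was not tested. Without clusters below the median level the median of all members was -0.17, against -0.05, and that of EIF2A to ARL14 was -0.53, against -0.255. This filter uses the mean of all arrays. IL12A and RPL22L1 passed it through the VO arrays alone, and PTX3 through the arrays labelled H1.3 alone. These 2 medians were not taken without such members. On leave-one-out the median of EIF2A to ARL14 lay between -0.345 and -0.245. The median of RSRC1 to NMD3, a segment set after seeing the data, lay between -0.768 and -0.647 on leave-one-out, that of PPM1L to MFN1 (-0.02) between -0.085 and -0.015, and that of all members (-0.05) between -0.13 and -0.085.

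In the fit that adds the replicate block, 0 members and 0 clusters in either direction were called in limma (2195 clusters at an unadjusted p under 0.05). Replicate differences of the groups correlated at 0.06 over the 21214 named clusters. That value weighs dim and unchanged clusters with the rest, so it cannot decide whether arrays of equal number belong together. They were not treated as pairs in the main fit.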
